A study of Mus musculus with 8 samples.

Results

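The Hox genes of the A, B, C and D clusters were described in RNA sequencing of mouse embryonic dorsal root ganglia and spinal cord, with and without Prdm12. Members were taken by name: 38 Hox symbols were listed, and 37 of them matched a row among the 38355 genes of the count tables. Of these 37, 29 had enough counts to be tested, among 16068 genes tested in all. Hoxd4 was the listed symbol without a matched row and is not analysed here.

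Hox genes encode homeodomain transcription factors that give cells along the head-to-tail axis their positional identity. Within a cluster the genes are turned on in the order in which they lie, so low-numbered paralogue groups reach the hindbrain and neck, and high-numbered groups are restricted to the trunk and tail. In the spinal cord Hoxc6 is known for forelimb-level motor neurons, Hoxc9 for thoracic ones, and Hoxc10 and Hoxd10 for lumbar ones, so the Hox genes found in a dissected piece depend on the level it was cut from.

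C57Bl6 embryos were used at E11.5, during sensory and spinal neurogenesis. Total RNA was taken from dorsal root ganglia, which hold the sensory neurons of the trunk, and spinal cord, which the series text places at thoracic level. The wild-type (WT) group had 4 libraries and the group with the Prdm12-/- genotype (KO) had 4, numbered 1 to 4 in their titles. The series text speaks of triplicates, and the labels say neither which part of Prdm12 was deleted nor whether libraries came from separate embryos or from pools. The p-values therefore measure the spread between these libraries, which may be technical. Prdm12, a zinc-finger factor of sensory neurons and interneurons, stood at 22.2 to 39.6 CPM (counts scaled to library size) in the WT libraries and at 0.962 to 1.55 CPM in the KO libraries (log2 fold change −4.70, SE 0.24, edgeR adjusted p = 0.000124).

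WT library 1 stood apart in depth, with 67782435 counts against 23088908 to 28500792 in the other 7. It also had the highest level of Atoh1, a gene of the hindbrain and dorsal cord (10.96 CPM, others 2.80 to 7.12). Of 8 ganglion neuron markers 7 had a row and all 7 were above 1 CPM in every library, as were all 10 spinal cord markers. Summed spinal cord markers were 331 to 377 CPM in WT and 287 to 326 CPM in KO, so that all KO libraries lay below all WT libraries. Summed ganglion markers were 403 to 548 CPM in WT and 382 to 439 CPM in KO, and summed skeletal muscle markers were 440 to 534 CPM in WT and 495 to 716 CPM in KO, both with overlap. The part of these tissue differences in the Hox values was not tested beyond a fit with muscle and mesenchyme markers as a covariate. That fit called 0 Hox genes, beside 0 genes higher and 1 lower among all genes. Its covariate, the mean log2 level of these markers, was 5.593 to 5.714 in WT and 5.712 to 5.992 in KO. It nearly followed genotype, so this fit cannot separate tissue content from genotype. Summed sclerotome and mesenchyme markers were 526 to 577 CPM in WT and 572 to 633 CPM in KO. Of 6 tail bud markers, Cdx2, Cdx4 and Msgn1 were below 0.1 CPM in every library, whereas T was at 1.88 to 3.76 CPM, Wnt3a at 2.60 to 4.78 CPM and Tbx6 at 0.772 to 1.28 CPM. The libraries hold several tissues, so fewer cells of a type and less RNA per cell cannot be told apart.

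The promoter letters of 4 members are shown first, because 3 of them, Hoxa10, Hoxd10 and Hoxd11, belonged to the members that differed most between libraries of the same genotype, and the other, Hoxb8, lay at the middle of all genes in that spread (rank 8022 of 16068). The windows hold the 250 bases before an annotated start and come from RefSeq on build GRCm38.p6, 5′ to 3′ on the strand of the gene. The capitals mark matches, on either strand, to TTTATG or TTTATA, the letters bound by Cdx factors, which switch on Hox genes in the tail bud, and to TGATNNAT, a letter pattern of Hox proteins bound together with their Pbx partners.
Hoxa10 (chr6:52234940-52235189, minus strand): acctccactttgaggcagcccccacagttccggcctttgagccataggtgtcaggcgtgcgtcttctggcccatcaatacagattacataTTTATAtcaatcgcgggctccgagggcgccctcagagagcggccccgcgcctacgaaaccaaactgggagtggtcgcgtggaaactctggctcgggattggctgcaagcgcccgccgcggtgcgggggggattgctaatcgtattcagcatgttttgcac
Hoxd10 (chr2:74691641-74691890, plus strand): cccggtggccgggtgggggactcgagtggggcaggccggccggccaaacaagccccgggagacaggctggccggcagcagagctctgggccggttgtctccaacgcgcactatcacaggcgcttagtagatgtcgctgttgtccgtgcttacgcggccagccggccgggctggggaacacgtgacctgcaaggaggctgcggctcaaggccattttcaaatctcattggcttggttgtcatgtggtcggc
Hoxd11 (chr2:74679308-74679557, plus strand): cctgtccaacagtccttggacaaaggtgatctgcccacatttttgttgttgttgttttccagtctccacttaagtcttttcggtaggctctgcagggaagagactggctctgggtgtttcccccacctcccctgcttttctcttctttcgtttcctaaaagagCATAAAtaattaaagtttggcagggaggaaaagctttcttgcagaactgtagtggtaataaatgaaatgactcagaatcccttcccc
Hoxb8 (chr11:96281655-96281904, plus strand): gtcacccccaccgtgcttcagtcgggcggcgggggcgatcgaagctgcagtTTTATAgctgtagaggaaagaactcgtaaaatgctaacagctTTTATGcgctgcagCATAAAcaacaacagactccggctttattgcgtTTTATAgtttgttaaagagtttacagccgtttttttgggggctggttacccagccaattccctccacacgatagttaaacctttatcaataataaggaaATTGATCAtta
The Hoxa10 window belongs to the start that lies inside the gene, and its other RefSeq window had no match. Hoxd11 also had a second RefSeq window further inside the gene, with 1 Hox-Pbx match and 0 Cdx matches. The window shown for Hoxd11 is the one at the gene start, unlike that for Hoxa10. The Hoxd10 window had no match to these letters, which says only that they are absent from this window. The Hoxb8 window had 4 Cdx matches and 1 Hox-Pbx match. In all, 22 of the 38 members matched this table, with 24 windows. A Cdx match was in 29.17% of those windows and in 20.9% of 32851 promoters searched alike, and a Hox-Pbx match in 16.67% and 7.68%. A match describes letters and is not evidence of binding.

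Most of the Hox signal came from paralogue groups 6 to 9, the genes of the trunk (levels here are CPM divided by exon length in kb). Groups 6 to 9 made up 61.9% to 70.4% of the summed Hox level per library, groups 1 to 5 made up 25.1% to 36.4%, and groups 10 to 13 made up 0.736% to 6.90%. Some anterior genes share much of their exon length with other genes. With levels divided by unshared exon bases, groups 6 to 9 made up 54.5% to 64.3% and groups 1 to 5 made up 31.7% to 43.9%. Group 9 was the largest with a mean share of 26.9%, followed by groups 6 and 8 at 16.99% and 16.9%, and group 10 had 3.43%. The HoxB cluster (chr11:96194316-96368256) gave 46.1% of the summed level on average, HoxC (chr15:102921103-103036852) 23.3%, HoxA (chr6:52162417-52260880) 22.1% and HoxD (chr2:74668310-74765142) 8.42%. The HoxD sum and all other sums lack Hoxd4, which had no matched row. The matched Hox genes together took 0.203% to 0.268% of the counts in a library.

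**Figure D1:**
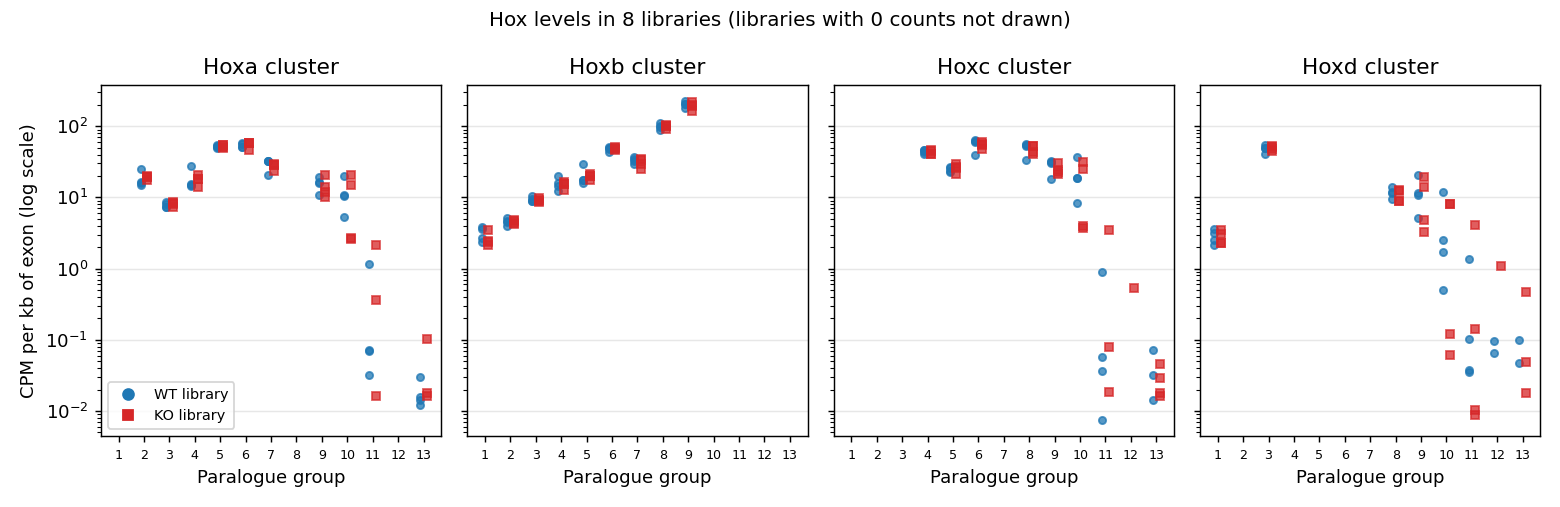
Level of each Hox gene in CPM per kb of exon (log axis) against paralogue group, 1 panel per cluster, with 1 point per library (blue circles WT, red squares KO). Points of groups 1 to 8 lie close together for each gene, and those of groups 10 and 11 spread widely in both genotypes. Points of groups 11 to 13 are the lowest in most libraries.

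Hoxb9, a thoracic gene of the HoxB cluster, had the highest level per kb of all members. It stood at 468.6, 524, 535 and 584 CPM in WT libraries 1 to 4 and at 557, 513, 503 and 419 CPM in KO libraries 1 to 4. The groups overlapped, with KO library 4 the lowest and WT library 4 the highest. Hoxb8, which lies next to it, was 232, 254, 269.8 and 290.2 CPM in WT and 270.1, 264, 264 and 239.7 CPM in KO. The lowest and the highest library of Hoxb8 were both WT. Hoxb8 differed 1.25-fold and Hoxb9 1.39-fold between the highest and the lowest library.

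The other members with the highest levels per kb were Hoxc6, Hoxa6, Hoxa5, Hoxd3, Hoxc8 and Hoxb6, 4 of them in groups 6 and 8. Hoxc6, a forelimb-level gene of motor neurons, was 94.98, 144, 150.2 and 156 CPM in WT and 130.4, 137, 143 and 115 CPM in KO. Hoxc8, known for brachial and upper thoracic levels, was 96.1, 153, 159 and 150.3 CPM in WT and 124, 147, 149 and 115 CPM in KO. For both genes WT library 1 was the lowest of all 8 and KO library 4 the second lowest. Hoxa6 stood at 45.2, 44.4, 50.6 and 48.99 CPM in WT and at 51.0, 51.0, 50.5 and 40.7 CPM in KO. Hoxa5, a neck and upper trunk gene that is also needed in the lung, was 102, 96.7, 98.0 and 92.7 CPM in WT and 103, 95.9, 103 and 93.7 CPM in KO. Neither gene set the groups apart, and the highest library of Hoxa5 was only 1.11-fold above the lowest. Hoxb6 differed 1.17-fold, at 96.2, 86.4, 93.4 and 101 CPM in WT and 99.0, 92.5, 93.3 and 96.2 CPM in KO. Hoxd3 was 228, 170, 206 and 210 CPM in WT and 212, 199, 222 and 187 CPM in KO, but 62.8% of its exon bases are shared with other annotated genes. Reads there cannot be assigned to Hoxd3 with certainty.

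Among the anterior genes, Hoxb1, which specifies rhombomere identity in the hindbrain, was low. It stood at 8.78, 5.53, 6.31 and 8.42 CPM in WT and at 7.98, 5.04, 5.59 and 5.51 CPM in KO. WT library 1 was the highest of all 8 for Hoxa2, Hoxa4, Hoxb1, Hoxb2, Hoxb3, Hoxb4, Hoxb5, Hoxd1 and Hoxd3. Hoxa4 stood at 44.1 CPM in WT library 1 and at 22.1 to 32.8 CPM in the other 7, and Hoxb5 stood at 83.2 CPM against 44.6 to 59.5. That library was also the lowest of all 8 for Hoxa7, Hoxb8, Hoxc6, Hoxc8 and Hoxc9. Exon bases shared with other genes made up 15.0% of Hoxa2, 16.0% of Hoxa4, 20.4% of Hoxa7 and 27.3% of Hoxb2. The ratio of Hoxa4 to Hoxa7 counts was 0.748 in WT library 1 and between 0.247 and 0.431 in the other 7. Its Atoh1 level was high as given above, and whether that goes with these Hox levels was not tested.

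The libraries of either genotype differed most at the posterior end. Hoxa10 (chr6:52231197-52240854), a lumbar-level gene, was 17.4, 34.5, 35.6 and 66.1 CPM in WT libraries 1 to 4 and 49.02, 67.0, 8.70 and 8.61 CPM in KO libraries 1 to 4. Hoxc10 (chr15:102966796-102971893), known for lumbar motor neurons, was 16.2, 35.9, 36.2 and 70.2 CPM in WT and 47.3, 59.7, 7.498 and 6.995 CPM in KO. Both genes were lowest in KO libraries 3 and 4, next lowest in WT library 1, and highest in WT library 4 and KO library 2. Between the lowest and highest library Hoxa10 differed 7.78-fold and Hoxc10 10.03-fold, yet the ratio of their counts stayed between 0.941 and 1.23 in all 8 although they lie on different chromosomes. Genotype did not order the libraries, as KO libraries took both the lowest and high places.

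The HoxD members of groups 9 to 11 followed nearly the same order. Hoxd9 (chr2:74697727-74700208) was 10.8, 23.1, 24.6 and 44.6 CPM in WT and 29.8, 41.2, 6.90 and 10.2 CPM in KO. Hoxd10 (chr2:74691924-74695105), a partner of Hoxc10 in lumbar motor neurons, was 0.906, 3.14, 4.59 and 21.8 CPM in WT and 14.7, 14.5, 0.112 and 0.219 CPM in KO. KO libraries 3 and 4 held only 3 and 5 Hoxd10 counts, while KO libraries 1 and 2 held 406 and 361. Hoxd11 (chr2:74679557-74687016), a sacral-level gene with a role in the limb and kidney, was 0.431, 0.148, 0.157 and 5.71 CPM in WT and 17.5, 0.601, 0.0375 and 0.0437 CPM in KO. It was high in WT library 4 and KO library 1 only, with 162 and 485 counts against 29 at most elsewhere. Among the group 9 genes on other chromosomes the range was smaller. Hoxa9 was 60.0, 91.7, 90.1 and 107 CPM in WT and 78.3, 116, 66.6 and 56.0 CPM in KO, and Hoxc9 was 44.0, 78.0, 74.2 and 77.5 CPM in WT and 58.7, 74.9, 54.7 and 52.6 CPM in KO. Hoxc9, which sets thoracic motor neuron identity, thus varied 1.77-fold and Hoxa9 2.08-fold, against 6.47-fold for Hoxd9.

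**Figure D2:**
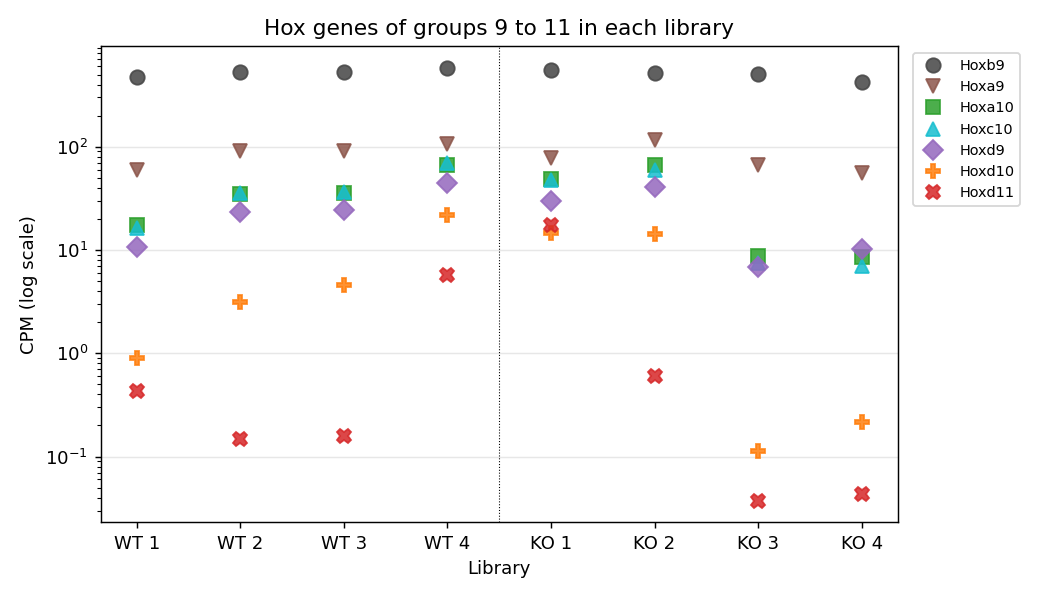
CPM (log axis) of 7 Hox genes of groups 9 to 11 in each of the 8 libraries, 1 marker shape per gene, with a dotted line between WT and KO. Hoxb9 was nearly level, whereas Hoxa10, Hoxc10, Hoxd9 and Hoxd10 were lowest together in KO 3 and KO 4, and Hoxd11 was high in WT 4 and KO 1.

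The genes of groups 11 to 13, which pattern the sacral and tail region and the outer limb, were near the detection limit in most libraries. Hoxa11 was 0.163, 0.0738, 0.157 and 2.68 CPM in WT and 4.84, 0.841, 0.0375 and 0 CPM in KO, and 35.0% of its exon bases are shared, mostly with the antisense gene Hoxa11os. Hoxc11 was 0.0149, 0.0738, 0.118 and 1.83 CPM in WT and 7.15, 0.160, 0.0375 and 0 CPM in KO. Like Hoxd11, both were high in WT library 4 and KO library 1, and KO library 1 was the highest. Hoxd12 was 0.163, 0, 0 and 0.247 CPM in WT and 2.75, 0, 0 and 0 CPM in KO. Hoxd13, a digit and genital gene, was 0.119, 0, 0 and 0.247 CPM in WT and 1.16, 0.120, 0 and 0.0437 CPM in KO. Hoxc12 had counts in KO library 1 alone (15 counts, 0.542 CPM), and Hoxa13 and Hoxc13 stayed at or below 0.253 CPM. Hoxb13 had no count in any library, which allows up to 0.0443 CPM in WT library 1, the deepest, and up to 0.130 CPM in KO library 4, the shallowest (3 counts each). These limits cover counting error only. The limb bud markers did not share 1 order of libraries. Tbx4 (1.41 CPM, others 0.510 to 0.787), Pitx1 (11.99 CPM, others 0.9747 to 10.9) and Hand2 were highest in KO library 1. Tbx5, Fgf10 and Tbx15 were highest in WT library 1, KO library 2 and KO library 4. Pitx1 was also 10.9 CPM in KO library 4 and 10.5 CPM in WT library 1. In WT library 4 Pitx1 was 3.10 CPM and Tbx4 0.528 CPM. Summed limb bud markers were 55.3 to 62.7 CPM in WT and 60.2 to 82.9 CPM in KO. Their part in the Hox values was not tested.

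The axial profile differed between libraries of the same genotype, although WT libraries 2 and 3 were close to each other, as were KO libraries 3 and 4. The share of groups 10 to 13 was 1.69%, 3.41%, 3.38% and 6.90% in WT libraries 1 to 4 and 6.03%, 6.25%, 0.736% and 0.812% in KO libraries 1 to 4. The mean was 3.84% ± 2.19 in WT and 3.46% ± 3.10 in KO (SD, n = 4 each). KO libraries thus fell into a pair above 6% and a pair below 1%, and the WT libraries lay between or above them. The mean paralogue number, weighted by level, was 6.40, 6.88, 6.82 and 6.997 in WT and 6.84, 6.94, 6.56 and 6.51 in KO, with means of 6.77 ± 0.26 and 6.71 ± 0.21 (SD, n = 4 each). WT library 1 had the lowest value and WT library 4 the highest, so the KO range lay within the WT range. With each detected member given equal weight the means were 6.19 ± 0.83 in WT and 6.51 ± 1.63 in KO, and the KO range of 5.25 to 8.72 reached beyond the WT range of 5.38 to 7.35. WT library 1 had the largest share of groups 1 to 5 at 36.4%, against 25.1% to 26.8% in the other WT libraries.

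**Figure D3:**
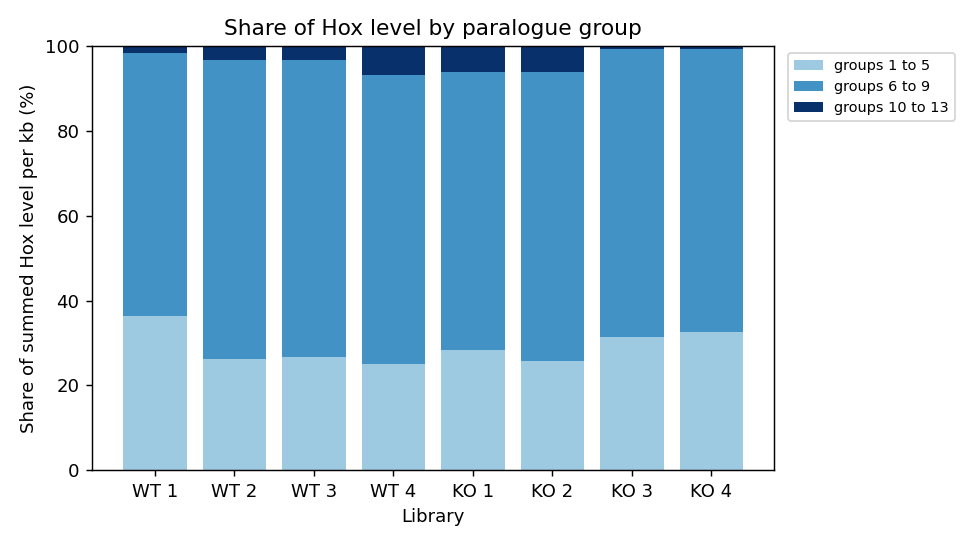
Stacked bars of the share (%) of the summed Hox level per kb that came from paralogue groups 1 to 5, 6 to 9 and 10 to 13, 1 bar per library. The dark band of groups 10 to 13 ranged from 0.736% in KO 3 to 6.90% in WT 4, and WT 1 had the largest share of groups 1 to 5.

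Read against all genes, the spread within a genotype was widest for Hoxd9 and the tested genes of groups 10 and 11. The pooled SD of log2 CPM within WT and KO had a median of 0.11 over the 16068 genes tested and of 0.18 over the 21 Hox genes of groups 1 to 8, whose range was 0.06 to 0.36. It was 2.93 for Hoxd11, 2.80 for Hoxd10, 1.32 for Hoxc10, 1.25 for Hoxa10 and 1.05 for Hoxd9. From the most variable gene down, these 5 ranked 7, 9, 34, 37 and 48, and the next Hox gene, Hoxa9, ranked 1052 with an SD of 0.41. The SD of a low gene is partly counting error, which was not separated here. In KO libraries 3 and 4 Hoxd10 had 3 and 5 counts, and Hoxd11 had 1 and 1.

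**Figure D4:**
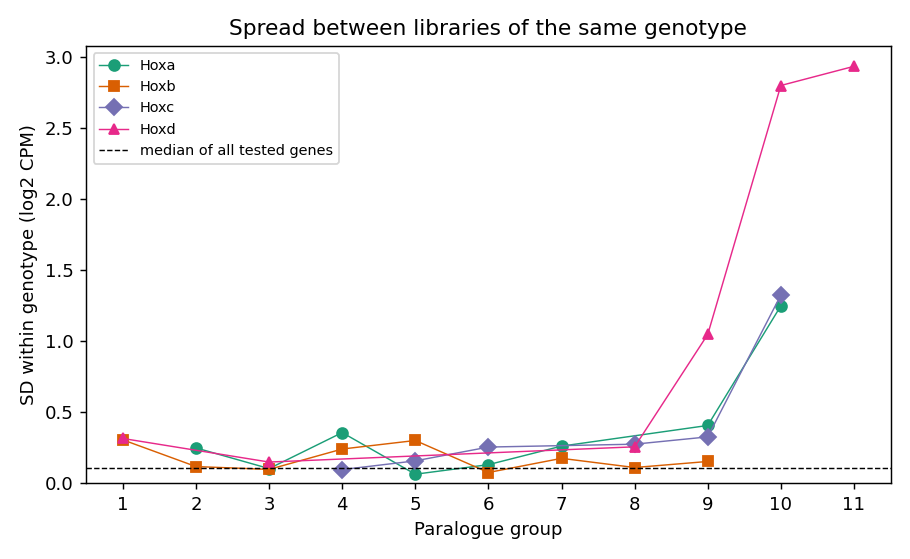
SD of log2 CPM between libraries of the same genotype for the 29 tested Hox genes against paralogue group, 1 line per cluster, with the median of all tested genes (0.11) dashed. Groups 1 to 8 stayed at or below 0.36, and group 10 reached 1.25 to 2.80.

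Against that spread, no Hox gene passed the test of KO against WT. With edgeR's quasi-likelihood test 0 of 29 tested members were called higher and 0 lower at an adjusted p under 0.05, beside 0.299% of all genes tested. At an unadjusted p under 0.05 the count was also 0 of 29, beside 6.35% of all genes. In 0 of 29 did the KO libraries lie wholly above or below the WT libraries, beside 4.14% of all genes. DESeq2 also called 0 members, beside 0.498% of all genes, with 0 of 36 at an unadjusted p under 0.05, beside 3.67%. Limma-voom called 0 members, beside 0.778% of all genes, with 2 of 29 (Hoxa2 and Hoxc9) at an unadjusted p under 0.05, beside 8.82%. All 25 members of groups 1 to 9 with a row were tested, but only 4 of 12 of groups 10 to 13. The 8 untested members reached at most 7.15 CPM in any library. The log2 fold change (KO over WT) was positive for 8 members and negative for 21, with a median of −0.05 against −0.003 over all genes. This count of signs depends on WT library 1. Without that library Hoxa4, Hoxb2, Hoxb3, Hoxb4, Hoxb5 and Hoxd1 turned positive, and the members positive with all libraries stayed positive. The signs of all genes were not counted, and the members were measured in the same libraries.

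The member with the smallest p was Hoxb1, whose log2 fold change was −0.28 (SE 0.18, edgeR adjusted p = 0.897). Next was Hoxb7, a trunk gene, with 45.5, 51.0, 56.2 and 53.8 CPM in WT and 51.0, 46.2, 53.8 and 38.7 CPM in KO (log2 fold change −0.12, SE 0.10). KO library 4 was the lowest, and the other 3 KO libraries lay inside the WT range. Hoxb9 followed at −0.08 (SE 0.09) and Hoxc9 at −0.17 (SE 0.20). Hoxc5, a neck-level gene that acts in phrenic motor neurons, was 81.8, 71.2, 73.4 and 79.6 CPM in WT and 83.7, 66.1, 92.1 and 80.1 CPM in KO, with a log2 fold change of 0.07. The KO libraries held both the lowest and the highest value. Hoxb3, expressed up to the hindbrain, was 44.8, 38.1, 37.8 and 40.9 CPM in WT and 41.8, 36.7, 38.5 and 39.5 CPM in KO, a log2 fold change of −0.05, and 52.9% of its exon bases are shared with other genes. Hoxa3, needed in the throat pouches and neck, was 51.6, 44.3, 44.5 and 48.4 CPM in WT and 52.5, 44.6, 50.5 and 48.3 CPM in KO, a log2 fold change of 0.05. Of the Hoxa3 exon bases 27.1% are shared. The groups of each of these genes overlapped.

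The intervals of the difference were narrow for most members and wide for a few. For 21 of the 29 members the 95% interval of the KO-to-WT ratio lay within 1.5-fold in either direction, and for 24 within 2-fold. Hoxa5 had an interval of −0.08 to 0.13 on the log2 scale and Hoxb8 one of −0.16 to 0.13. The 5 members whose interval reached beyond 2-fold were Hoxa10, Hoxc10, Hoxd9, Hoxd10 and Hoxd11. Their intervals were −2.15 to 1.77 for Hoxa10, −2.42 to 1.69 for Hoxc10, −1.88 to 1.46 for Hoxd9, −3.55 to 3.55 for Hoxd10 and −2.91 to 6.08 for Hoxd11. For Hoxd11 the fitted value of 1.59 (SE 1.85) rested on KO library 1, without which it was −2.75. For these 5 a difference of several-fold between genotypes was not detectable at this spread.

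**Figure D5:**
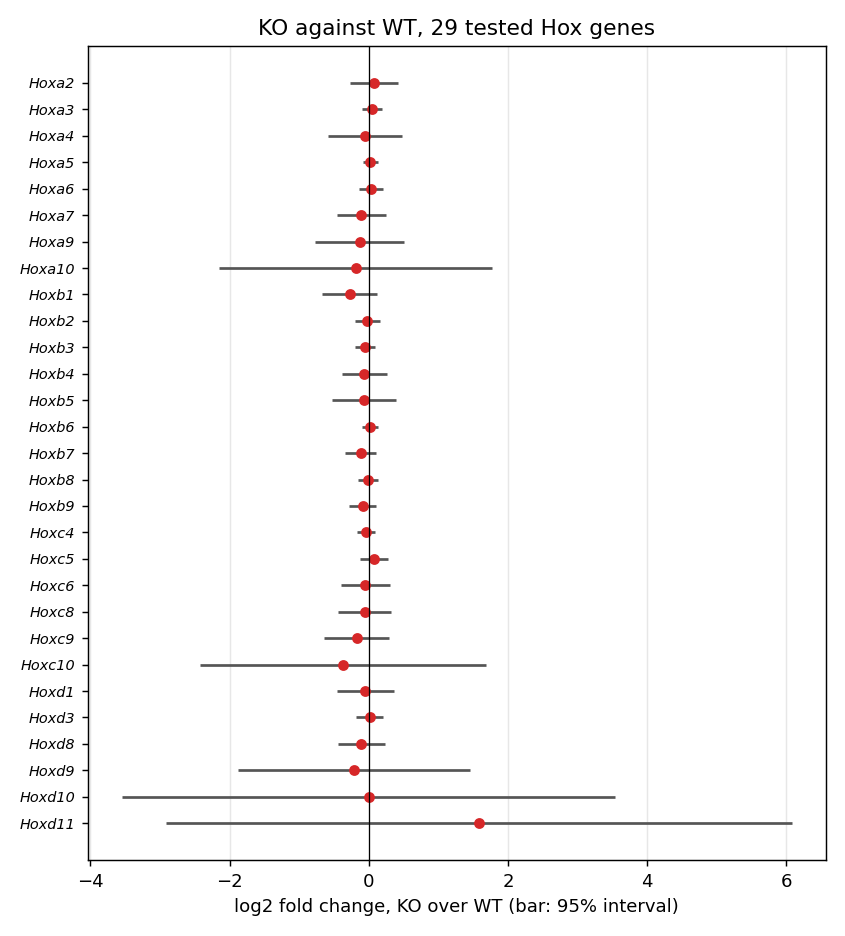
Log2 fold change (KO over WT, points) with its 95% interval (bars) for the 29 tested Hox genes. Every interval includes 0, and the widest belong to Hoxd11, Hoxd10, Hoxc10, Hoxa10 and Hoxd9.

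Leaving out WT library 1, the deep library with the anterior profile, changed the unadjusted results but not the calls. Without it 7 of 30 tested members had an unadjusted p under 0.05, beside 7.23% of all genes in that fit. Of the 30, 0 passed the adjusted threshold (smallest adjusted p = 0.116, Hoxa2), beside 0.82% of all genes. On the log2 scale Hoxa2 was then 0.29, Hoxa4 0.25 and Hoxb5 0.20, and Hoxc9 was −0.34, Hoxa7 −0.25, Hoxc8 −0.20 and Hoxc6 −0.18. With all 8 libraries Hoxa2 was 0.07, Hoxa4 −0.05 and Hoxb5 −0.07. The anterior genes among the 7 stood above 0 in KO and the trunk genes below 0. WT library 1 was the highest of all 8 for Hoxa2, Hoxa4 and Hoxb5 and the lowest for Hoxa7, Hoxc6, Hoxc8 and Hoxc9. Leaving it out moves these genes in these directions by construction, so the pattern is not a separate result. Elsewhere in that fit Hoxb1 was −0.15 and Hoxb6 0.03. Leaving out any other single library gave 0 or 1 members with an unadjusted p under 0.05.

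Genes that work with or on Hox genes were compared in the same fit, in which 0.299% of all genes tested were called. The TALE cofactors, homeodomain proteins of the Pbx, Meis and Pknox families that bind DNA beside Hox proteins, had 0 of 9 tested members called. Meis3 had the smallest p of them, with means of 120.5 ± 6.70 CPM in the WT libraries and 112 ± 3.41 CPM in the KO libraries (SD, n = 4 per genotype, log2 fold change −0.11), and Meis1 had a log2 fold change of 0.08. Of 17 axial signals and Hox activators 13 were tested and 0 called. For Cyp26b1, which breaks down retinoic acid, the log2 fold change was 0.27 (adjusted p = 0.530), and for the retinoic acid receptor gene Rarg it was 0.19 (adjusted p = 0.618). Polycomb and Trithorax genes, which keep Hox genes off or on through chromatin, had 0 of 23 called, with Ezh1 at 0.15 and Phc2 at −0.09. Thus 1 of these lists held a call, that of motor column genes with 1 of 9. Its called member, the motor neuron and V2 interneuron gene Lhx3, rose by 0.56 on the log2 scale (adjusted p = 0.0169), and Lhx1 was −0.17. Lhx3 lost the call without WT library 2 (adjusted p = 0.0681), WT library 4 (0.0622) or KO library 3 (0.0665), and with the muscle and mesenchyme covariate, where its log2 fold change was 0.38.

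Of 10 genes flanking the clusters 8 were tested and 0 called by edgeR, beside 0.299% of all genes. At an unadjusted p under 0.05 there were 2, beside 6.35% of all genes. Evx2, a homeobox gene of V0 interneurons next to Hoxd13, was 6.58, 4.06, 4.51 and 5.35 CPM in WT and 8.71, 7.89, 9.22 and 8.88 CPM in KO. Evx1, its counterpart next to the HoxA cluster, was 8.30, 4.32, 4.66 and 5.53 CPM in WT and 10.7, 8.73, 10.4 and 12.02 CPM in KO. For both genes the 4 KO libraries lay above the 4 WT libraries, and 4.14% of all genes had groups apart in either direction. Their log2 fold changes of 0.74 (SE 0.14, edgeR adjusted p = 0.0713) and 0.84 (SE 0.19, edgeR adjusted p = 0.233) missed the threshold. Both passed with DESeq2 (adjusted p = 0.000956 for Evx2 and 0.00372 for Evx1), with limma-voom (0.00349 and 0.0039) and in edgeR without WT library 1 (0.00283 and 0.00131). Their levels did not follow the order of the libraries in Hoxd10 or Hoxd11.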

How the data were processed

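Read counts were used from 8 libraries of total RNA. The authors deposited whole-number counts per gene, 1 table per library, and the submitters' processing notes name mm10 as the build and, as tools, featureCounts 1.4.6-p1, STAR 2.3.0e, DESeq2 1.8.2, SAMtools 0.1.18 and FastQC 0.10.1. Which annotation release and strand setting were used is not given in the sources used here, so overlapping genes on opposite strands may share reads. The 5 summary rows held 0 counts and were left out.

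Symbols, exon lengths and coordinates came from GENCODE M21 on GRCm38, the assembly of mm10 (36602 identifiers matched, 1753 did not and held 0.263% of counts). The identifier of Hoxd4 was not matched. At the smallest total 1 CPM is 23.1 counts. Groups came from the genotype labels, and edgeR 4.0.16 (R 4.3.3; filterByExpr, TMM factors 0.991 to 1.012, robust quasi-likelihood F test, group alone) was fitted on the whole table, with Benjamini-Hochberg adjustment over 16068 genes at 0.05. The SE of a log2 fold change is its size divided by the square root of F. DESeq2 1.42.0, limma-voom (limma 3.58.1), other scalings and filters, a replicate block, a covariate of muscle and mesenchyme markers, other axial weights and leaving out each library were alternatives. Thinning WT library 1 and a covariate of Hoxa10, Hoxc10 and Hoxd10 were added after seeing the data. The scripts were tested on simulated data. No libraries of a group agreed within sampling noise. The members, lists and tests were chosen with earlier results of these data known.

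Values in every library are given for members called, for the 8 with the smallest p, for the 8 with the highest level per kb, and for members of groups 10 to 13 with a mean of at least 0.1 CPM. Of each list the called members and the 2 with the smallest p are named. Other members and markers were chosen after their values were seen. Promoters came from RefSeq, and figures were drawn with matplotlib 3.10.9. A marker that was measured is not reported here.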

Additional observations from a re-analysis of the deposited data

Results flagged for a closer look

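In 52 groups of 4 libraries, the highest or lowest library was set against the other 3 of its genotype, and 11 groups held a library far from the rest. For a single group of independent, normally distributed values, chance gives about 1 in 20. The 11 of 52 cannot be set against that rate. The groups were not independent, as neighbouring genes were measured in the same libraries, and many posterior values were near the detection limit. Posterior genes were also included by their mean level, which a single high library can raise, as KO library 1 did for Hoxd12. Most of the 11 concerned the posterior genes. KO library 1 was far above the other KO libraries for Hoxd11 (17.5 CPM), Hoxc11 (7.15 CPM), Hoxd12 (2.75 CPM) and Hoxd13 (1.16 CPM). WT library 4 was far above the other WT libraries for Hoxd11 (5.71 CPM), Hoxa11 (2.68 CPM) and Hoxc11 (1.83 CPM). WT library 1 was far below the other WT libraries for Hoxc8 (96.1 CPM) and Hoxc9 (44.0 CPM), and far above them in the share of groups 1 to 5 (36.4%). KO library 4 was far below the other KO libraries for Hoxa6 (40.7 CPM).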

How the results depend on the processing

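No Hox gene was called in any of the 18 alternatives, and the calls over all genes (9 higher, 39 lower) moved more. They were 19 and 81 with DESeq2, 23 and 102 with limma-voom, 0 and 1 with the muscle and mesenchyme covariate, and 3 to 21 and 12 to 112 without single libraries, the most without WT library 1. With the replicate number as a block they were 2 and 14. The numbers share no more than a number: same-numbered deviations correlated at −0.11, 0.28, −0.19 and −0.01, and 1 of 4 correlated best with its own number. With the muscle and mesenchyme covariate the sign turned for Hoxa10 (1.17), Hoxb1 (0.16), Hoxb3 (0.0305), Hoxb7 (0.0149), Hoxb8 (0.0766), Hoxb9 (0.12), Hoxc10 (1.05) and Hoxd10 (3.05), and Hoxd11 moved from 1.59 to 8.05 (SE 1.71, adjusted p = 0.944). It turned with limma-voom for Hoxb3 (0.015), with the covariate of group 10 genes for Hoxb8 (0.0266) and Hoxc6 (0.015), and for Hoxd10 with RLE size factors (0.0017), library totals (0.011) and no filter (0.0005). Without single libraries the log2 fold changes ranged from 0.0152 to 0.11 for Hoxa3, −0.44 to −0.15 for Hoxb1, −0.18 to −0.0301 for Hoxb7, −0.14 to −0.0077 for Hoxb9, 0.0058 to 0.16 for Hoxc5 and −0.34 to −0.10 for Hoxc9. They changed sign within −0.77 to 0.21 for Hoxa10, −0.0841 to 0.0126 for Hoxb3, −0.0265 to 0.0493 for Hoxb6, −0.0591 to 0.0413 for Hoxb8, −0.18 to 0.0248 for Hoxc6, −0.20 to 0.0104 for Hoxc8, −0.92 to 0.0651 for Hoxc10, −0.0667 to 0.0783 for Hoxd3, −0.59 to 1.45 for Hoxd10 and −2.75 to 3.98 for Hoxd11. The cause of these moves was not tested. Over unshared exon bases the mean paralogue number was 6.41 in WT and 6.34 in KO. With equal weight per gene it was 6.19 in WT and 6.51 in KO, the opposite order, and the share of groups 10 to 13 was 15.8% in WT and 20.8% in KO. Depth limits groups 11 to 13, which rest on few counts.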

Other observations

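The other genes inside the clusters, chosen after their values were seen, included some with a similar order of libraries to the posterior Hox genes. They are annotated as non-coding, except for the protein-coding 5730596B20Rik and the pseudogene Gm11539. Of 22 with a row 13 were tested and 0 were called by edgeR, beside 0.299% of all genes. An unadjusted p under 0.05 was found for 0, beside 6.35% of all genes. Gm53, a long non-coding gene between Hoxb13 and Hoxb9 (chr11:96251105-96264868), was 10.8, 15.5, 18.3 and 23.1 CPM in WT libraries 1 to 4 and 17.4, 24.0, 11.1 and 9.40 CPM in KO libraries 1 to 4. Its lowest libraries were KO 4, WT 1 and KO 3, the same 3 as for Hoxa10 and for its neighbour Hoxb9, which varied 1.39-fold.

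Hotair, a long non-coding gene between Hoxc12 and Hoxc11 (chr15:102944062-102947730), had 0.0149, 0, 0 and 0.106 CPM in WT and 0.795, 0, 0 and 0 CPM in KO. Hoxa11os, antisense to Hoxa11, had 0.0891, 0.0369, 0.0784 and 2.11 CPM in WT and 4.84, 0.280, 0 and 0 CPM in KO. Both were highest in KO library 1 and next highest in WT library 4, as were Hoxd11, Hoxa11 and Hoxc11. The strand setting of the counting is not given, so Hoxa11os and Hoxa11 cannot be told apart where they overlap.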
